A study of Homo sapiens with 12 samples.

Results

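The 28 genes described here encode the enzymes that build cholesterol from acetyl-CoA and the proteins that control the transcription factor SREBP2. They were chosen by gene symbol from the known pathway, and all 28 were found among the 18668 genes listed and among the 17702 that passed the filter on low counts. By role they are 8 genes of the mevalonate steps, 3 of the squalene steps, 8 of the steps after lanosterol, 2 of sterol transport, 6 of SREBP control and 1 further lipid gene, LPIN1. Messenger RNA was sequenced from 22Rv1, a human castration-resistant prostate cancer line labelled wild type, with 3 biologically independent replicates in each of 4 groups, each lysed after 24 h of exposure. The groups were a degrader labelled as targeting the androgen receptor (22Rv1_2024 in the labels), enzalutamide (a drug used in the clinic against prostate cancer), an autophagy-activating ligand (22Rv1_1021 in the labels) and vehicle. All groups were grown in the same RPMI-1640 medium with serum. Doses were not in the labels, and the results rest on 1 cell line.

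Cholesterol synthesis runs in the cytosol and the endoplasmic reticulum (ER), first through mevalonate to isoprenoid units, then through squalene to lanosterol, and then through a series of oxidations and reductions to cholesterol. SREBP2 is made as a membrane protein of the ER, where SCAP, its escort and sterol sensor, is held by the INSIG proteins while sterol is plentiful. When ER sterol is low, SCAP carries SREBP2 to the Golgi, the proteases encoded by MBTPS1 and MBTPS2 release its active part in turn, and the released factor raises transcription of most genes of the pathway, of INSIG1 and of its own gene. Its sites, the sterol regulatory elements, commonly lie beside CCAAT boxes bound by the factor NF-Y, which acts with it.

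Promoter windows of these genes were read from RefSeq (GRCh38.p14), from 250 bases before to 50 bases after the start. RefSeq windows were matched for 25 of the 28 genes, all but ACAT2, FDFT1 and SQLE. The first sequence below is that of SREBF2, which encodes SREBP2 itself and held the only match to the sterol element searched for. HMGCS1 and INSIG1, which had the largest changes, follow. Then comes MVK, which with NSDHL held the most CCAAT boxes in a single window. The last are INSIG2 and MBTPS2, which belong to the same control circuit and were not called. Each is written 5′ to 3′ on the strand of its gene, and capitals mark the sterol element (TCACNCCAC) and the CCAAT box, which reads ATTGG where it lies on the other strand.
SREBF2 (chr22:41832855-41833154, plus strand): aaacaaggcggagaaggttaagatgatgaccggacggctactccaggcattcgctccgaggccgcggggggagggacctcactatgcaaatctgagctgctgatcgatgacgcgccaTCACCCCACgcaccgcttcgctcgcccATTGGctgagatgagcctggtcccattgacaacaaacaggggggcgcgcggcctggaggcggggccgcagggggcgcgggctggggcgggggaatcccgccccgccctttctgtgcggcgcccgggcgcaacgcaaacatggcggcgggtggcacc
HMGCS1 (chr5:43313363-43313662, minus strand): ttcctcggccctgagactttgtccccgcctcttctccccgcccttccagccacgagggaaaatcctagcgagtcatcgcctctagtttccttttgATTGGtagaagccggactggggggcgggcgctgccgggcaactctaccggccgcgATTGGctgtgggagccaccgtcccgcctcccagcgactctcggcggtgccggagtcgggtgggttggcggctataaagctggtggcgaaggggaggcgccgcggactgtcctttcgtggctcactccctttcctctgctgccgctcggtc
INSIG1 (chr7:155297628-155297927, plus strand): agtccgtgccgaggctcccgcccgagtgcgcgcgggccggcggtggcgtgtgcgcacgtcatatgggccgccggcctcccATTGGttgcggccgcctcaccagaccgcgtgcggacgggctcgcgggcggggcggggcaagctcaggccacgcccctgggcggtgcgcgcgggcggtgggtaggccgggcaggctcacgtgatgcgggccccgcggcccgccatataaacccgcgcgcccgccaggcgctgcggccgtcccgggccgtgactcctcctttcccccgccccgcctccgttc
MVK (chr12:109573544-109573843, plus strand): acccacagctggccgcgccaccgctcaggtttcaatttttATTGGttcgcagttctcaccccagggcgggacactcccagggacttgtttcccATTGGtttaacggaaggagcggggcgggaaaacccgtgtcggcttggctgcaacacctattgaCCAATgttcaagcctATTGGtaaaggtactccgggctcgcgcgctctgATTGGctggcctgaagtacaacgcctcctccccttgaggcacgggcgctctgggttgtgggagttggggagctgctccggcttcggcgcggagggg
INSIG2 (chr2:118088221-118088520, plus strand): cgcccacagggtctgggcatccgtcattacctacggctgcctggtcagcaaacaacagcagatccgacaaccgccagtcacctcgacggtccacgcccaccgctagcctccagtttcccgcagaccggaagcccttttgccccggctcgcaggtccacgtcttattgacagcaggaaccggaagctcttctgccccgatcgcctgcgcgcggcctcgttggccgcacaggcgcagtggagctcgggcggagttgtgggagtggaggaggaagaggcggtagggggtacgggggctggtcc
MBTPS2 (chrX:21839367-21839666, plus strand): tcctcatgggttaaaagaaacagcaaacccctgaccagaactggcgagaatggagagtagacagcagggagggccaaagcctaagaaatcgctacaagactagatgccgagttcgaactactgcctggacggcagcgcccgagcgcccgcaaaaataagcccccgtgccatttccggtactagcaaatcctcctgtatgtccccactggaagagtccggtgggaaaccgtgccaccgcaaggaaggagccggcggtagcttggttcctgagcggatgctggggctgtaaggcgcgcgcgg

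In the SREBF2 window the sterol element began 133 bases before the gene start and the CCAAT box began 106 bases before it. Where a gene had several windows, the one with the most marked matches is shown. In the HMGCS1 window shown, CCAAT boxes began 155 and 100 bases before the start, and its other window held 0. MVK had 5 CCAAT boxes, at 210, 157, 94, 79 and 46 bases. Searched on both strands, TCACNCCAC was present in windows of 1 of the 25 matched genes, against 1.39% of all 27305 genes with a window. CCAAT was present in 18 of the 25 (72.0%), against 39.7% of all genes. The SP1 motif GGGCGG was present in 22 of 25 (88.0%), against 48.3% of all genes, and the E-box CACGTG in 4 of 25 (16%), against 8.78%. Matches could share bases with one another, as the CCAAT boxes 132 and 129 bases before an IDI1 start did, and a gene with several windows was counted if any of them held the motif. Among the matched genes that rose with the degrader, described next, 17 of 19 held a CCAAT box (all but CYP51A1 and LPIN1), and of the 6 that were not called 1 did, GGPS1. These matches are descriptions of letters in a window and were not tested. Variants of TCACNCCAC and sites outside the windows were not searched for, so a gene without a match may still have a sterol element.

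The 12 libraries held between 55.5 and 77.2 M reads assigned to genes. At that depth the precision of each value was set mainly by how far the replicates lay apart. All 6 luminal epithelial markers looked for were listed. With the degrader against vehicle 5 of them fell, where 16.4% of all genes fell, and EPCAM was not called (adjusted p = 0.568). KRT8, the highest of the 6, stood at 461 ± 35.6 CPM with the degrader and 773 ± 68.5 CPM with vehicle (mean ± SD, n = 3 each). CPM are counts per 1e6 counted reads, with TMM-scaled totals. KLK3, the lowest, stood at 11.2 ± 0.908 CPM with the degrader and 21.4 ± 0.466 CPM with vehicle, between COL1A1 and VIM below. Of the basal markers KRT5, KRT14 and TP63 none was among the genes listed, each of which had at least 1 read in every library, and nor were the leukocyte marker PTPRC and the collagen gene COL1A2. COL1A1 (10.7 ± 0.982 CPM with the degrader and 11 ± 0.291 CPM with vehicle), VIM (19 ± 1.87 CPM with the degrader and 22.2 ± 2.41 CPM with vehicle) and CD68 (6.70 ± 0.922 CPM with the degrader and 8.32 ± 0.252 CPM with vehicle) were low, and DCN was under 1 CPM in both groups. Of these only CD68 was called with the degrader against vehicle, and it was lower with the degrader (adjusted p = 0.0421). The part of these markers in any result was not tested. Of 3 hormone-responsive genes used as a check of treatment, KLK3, the gene of prostate-specific antigen, fell with the degrader against vehicle (log2 fold change -0.92, SE 0.07, adjusted p = 2.54e-08) and with enzalutamide (-0.34, SE 0.07, adjusted p = 0.00859), and was at -0.15 with the ligand (adjusted p = 0.616). KLK2 fell with the degrader (-1.09, 1.7e-09), with enzalutamide (-0.42, 0.000794) and with the ligand (-0.32, 0.0331). FKBP5 fell with the degrader (adjusted p = 1.1e-10) and with enzalutamide (-1.25, 7.18e-11), was 0.25 higher with the degrader than with enzalutamide (0.000451), and was at -0.04 with the ligand (0.909).

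How the degrader altered these genes was read first from degrader against vehicle. Of the 28 genes 22 rose and 0 fell by edgeR, at a Benjamini-Hochberg adjusted p under 0.05 over all genes tested. Downward, SCAP was the 1 gene with an unadjusted p under 0.05, and DESeq2 called 0 lower. In this comparison 16.4% of all genes rose and 16.4% fell, and 1.16% rose by 1 or more on the log2 scale, as 13 of the 28 did. The median log2 fold change was 0.97 over the 28 genes and 0.01 over all genes tested. In 22 of the 28 genes the 3 degrader libraries lay above the 3 vehicle libraries, an arrangement found in 23.1% of all genes. These were the 22 that rose, and the call and the arrangement rest on the same libraries. Summed over the 28 genes, the reads made up 0.535 to 0.576% of each degrader library, 0.257 to 0.269% of each enzalutamide library, 0.320 to 0.336% of each ligand library and 0.261 to 0.264% of each vehicle library. In RNA from whole cultures, a change in each cell and a change in the share of cells that express a gene cannot be told apart.

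**Figure D1:**
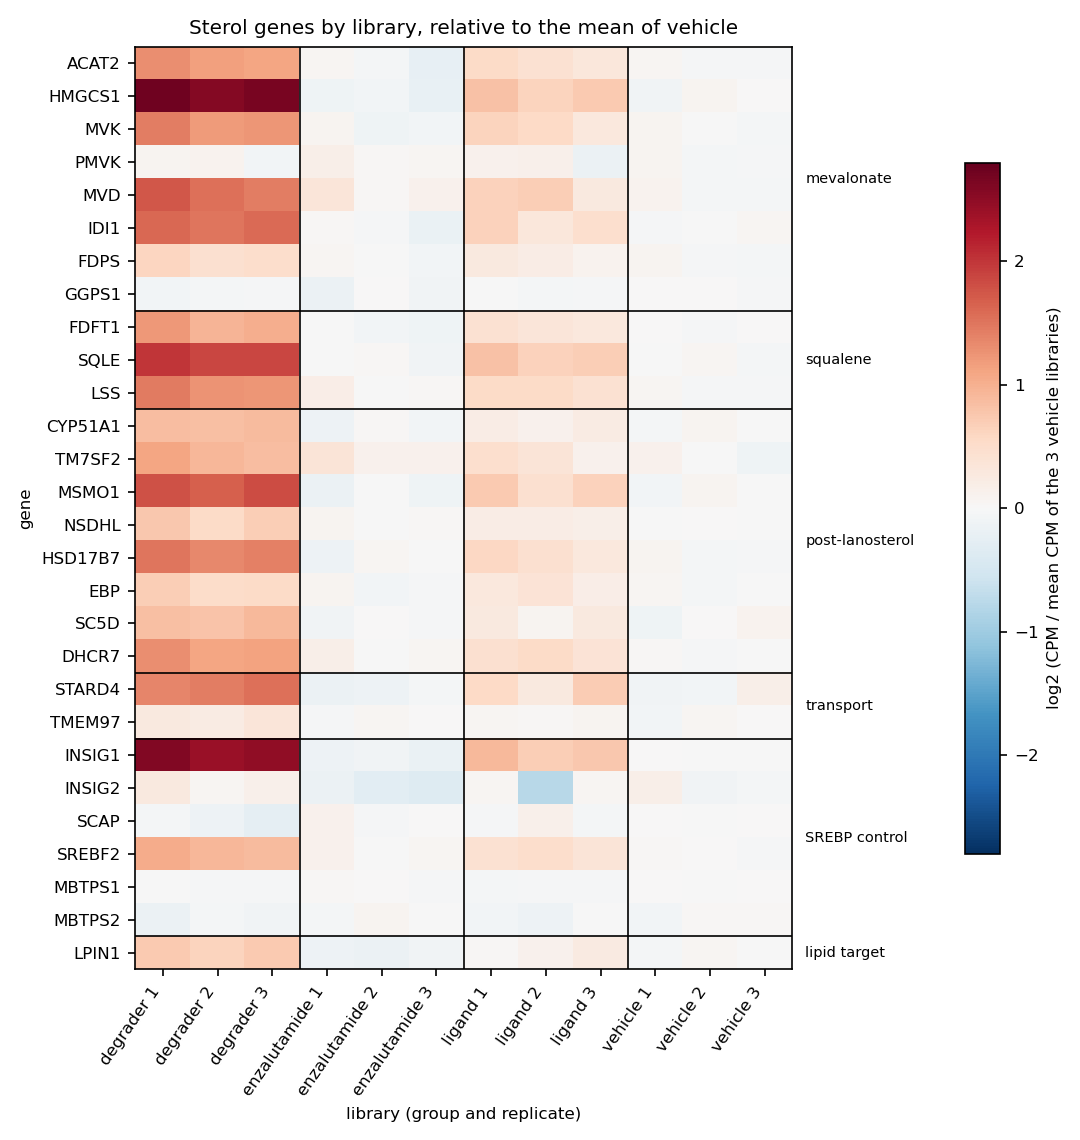
Log2 ratio of the CPM in each library to the mean CPM of the 3 vehicle libraries, for the 28 sterol genes (rows, by role) in 12 libraries (columns). Red is higher and blue lower than vehicle; the degrader columns are the darkest, the ligand columns are paler red in most of the genes that are red with the degrader but not in TMEM97 or LPIN1, and the rows of PMVK, GGPS1, SCAP, MBTPS1 and MBTPS2 stay pale throughout, as does that of INSIG2 apart from its blue second ligand library.

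Of the 8 mevalonate genes 6 rose with the degrader. HMGCS1, the cytosolic synthase that joins acetoacetyl-CoA and acetyl-CoA, had 727, 651 and 699 CPM in the degrader libraries, 102, 104 and 95.5 CPM with enzalutamide, 194, 170.2 and 183 CPM with the ligand and 103, 116 and 111 CPM with vehicle. The degrader libraries stood far above all others, the ligand libraries stood between them and vehicle, and the enzalutamide and vehicle libraries overlapped. Its 6.29-fold rise with the degrader was the largest of the 28 (log2 fold change 2.65, SE 0.06, adjusted p = 7.43e-14). ACAT2, the cytosolic thiolase that feeds this step, had 142, 128 and 124 CPM with the degrader and 60.6, 56.5 and 57.1 CPM with vehicle (log2 fold change 1.18, SE 0.07, adjusted p = 4.41e-09). MVK, mevalonate kinase, had 77.9, 66.3 and 68.5 CPM with the degrader and 30.4, 28.6 and 28 CPM with vehicle (1.29, SE 0.08, adjusted p = 6.19e-09). In both genes every degrader library was above every vehicle library.

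The next kinase of the pathway, encoded by PMVK, adds the second phosphate to mevalonate. PMVK had 62.0, 62.4 and 55 CPM with the degrader, 65.7, 60.0 and 60.8 CPM with enzalutamide, 63.8, 64.4 and 52.4 CPM with the ligand and 61.2, 56.3 and 57.5 CPM with vehicle, and all 4 groups overlapped (degrader against vehicle 0.04, 95% confidence interval -0.12 to 0.19, adjusted p = 0.752). After it in the pathway, MVD, the decarboxylase that makes isopentenyl diphosphate, had 116, 99.9 and 93.6 CPM with the degrader and 36.9, 33.1 and 33.4 CPM with vehicle (1.58, SE 0.11, adjusted p = 8.6e-08). IDI1, the isomerase that makes the second isoprenoid unit, had 214, 200.3 and 212 CPM with the degrader and 68.4, 69.5 and 73.6 CPM with vehicle (1.57, SE 0.07, adjusted p = 1.27e-10). The degrader libraries of MVD and IDI1 lay well clear of the vehicle libraries, so that the genes on either side of PMVK rose by more than 1 on the log2 scale.

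At the branch point to sterols, FDPS, the farnesyl diphosphate synthase, had 316, 287 and 295 CPM with the degrader and 220.1, 206 and 204 CPM with vehicle, the smallest rise among the mevalonate genes that changed (0.51, SE 0.05, adjusted p = 2.36e-06). GGPS1 makes geranylgeranyl diphosphate, which leads away from sterols to protein prenylation. It had 101, 101 and 103 CPM with the degrader and 106, 108 and 104 CPM with vehicle (-0.06, 95% confidence interval -0.15 to 0.04, adjusted p = 0.359). Its degrader libraries all lay slightly below the vehicle libraries, as in 22.1% of all genes, and the change did not pass the test.

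All 3 genes of the squalene steps rose with the degrader. SQLE, squalene epoxidase and a rate-limiting enzyme of the later pathway, had 134, 123 and 123 CPM with the degrader, 33.3, 34.4 and 31.2 CPM with enzalutamide, 58.8, 52.3 and 54.1 CPM with the ligand and 33.3, 34.9 and 32.0 CPM with vehicle. The degrader libraries were the highest and the ligand libraries the next, and the enzalutamide libraries overlapped with vehicle. The log2 fold change of SQLE with the degrader against vehicle was 1.92, SE 0.06, adjusted p = 1.87e-12. FDFT1, squalene synthase, which commits farnesyl units to sterols, had 767, 647 and 671 CPM with the degrader and 338, 326 and 334 CPM with vehicle (log2 fold change 1.06, SE 0.06, adjusted p = 1.36e-09). LSS, the cyclase that makes lanosterol, had 286, 252 and 247 CPM with the degrader and 109, 103 and 103 CPM with vehicle (1.32, SE 0.06, adjusted p = 2.23e-10). In each of the 3 genes the degrader and vehicle libraries did not overlap.

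All 8 of the listed genes of the steps after lanosterol also rose with the degrader, with log2 fold changes from 0.58 to 1.76. Enzymes of these steps outside the list are not part of this count. MSMO1, the methyl sterol oxidase, had 187, 174 and 194 CPM with the degrader, 48.9, 54.3 and 49.8 CPM with enzalutamide, 90.3, 74.8 and 85.7 CPM with the ligand and 51.8, 57.2 and 54.5 CPM with vehicle. Degrader libraries stood above the ligand libraries, and these above vehicle, with enzalutamide overlapping vehicle (degrader against vehicle 1.76, SE 0.07, adjusted p = 1.72e-11). HSD17B7, the sterol ketoreductase, rose to 27.7 ± 1.35 CPM with the degrader, against 10.3 ± 0.495 CPM with vehicle (mean ± SD, n = 3 each; 1.42, SE 0.08, adjusted p = 1.6e-09). DHCR7, the reductase of the last step and the gene of Smith-Lemli-Opitz syndrome, rose to 254 ± 19.9 CPM with the degrader, against 112 ± 2.83 CPM with vehicle (1.19, SE 0.06, adjusted p = 6.87e-10).

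The other members of this group moved by less than 1 on the log2 scale. TM7SF2, a sterol reductase, was at 0.97 with the degrader against vehicle (adjusted p = 1.48e-06), and CYP51A1, the lanosterol demethylase and the target of azole drugs in fungi, was at 0.86 (2.26e-09). SC5D, the lathosterol desaturase, was at 0.85 (6.01e-08), NSDHL, a sterol dehydrogenase, at 0.67 (3.78e-07) and EBP, the sterol isomerase, at 0.58 (2.64e-06). In all 5 the degrader libraries lay above the vehicle libraries.

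**Figure D2:**
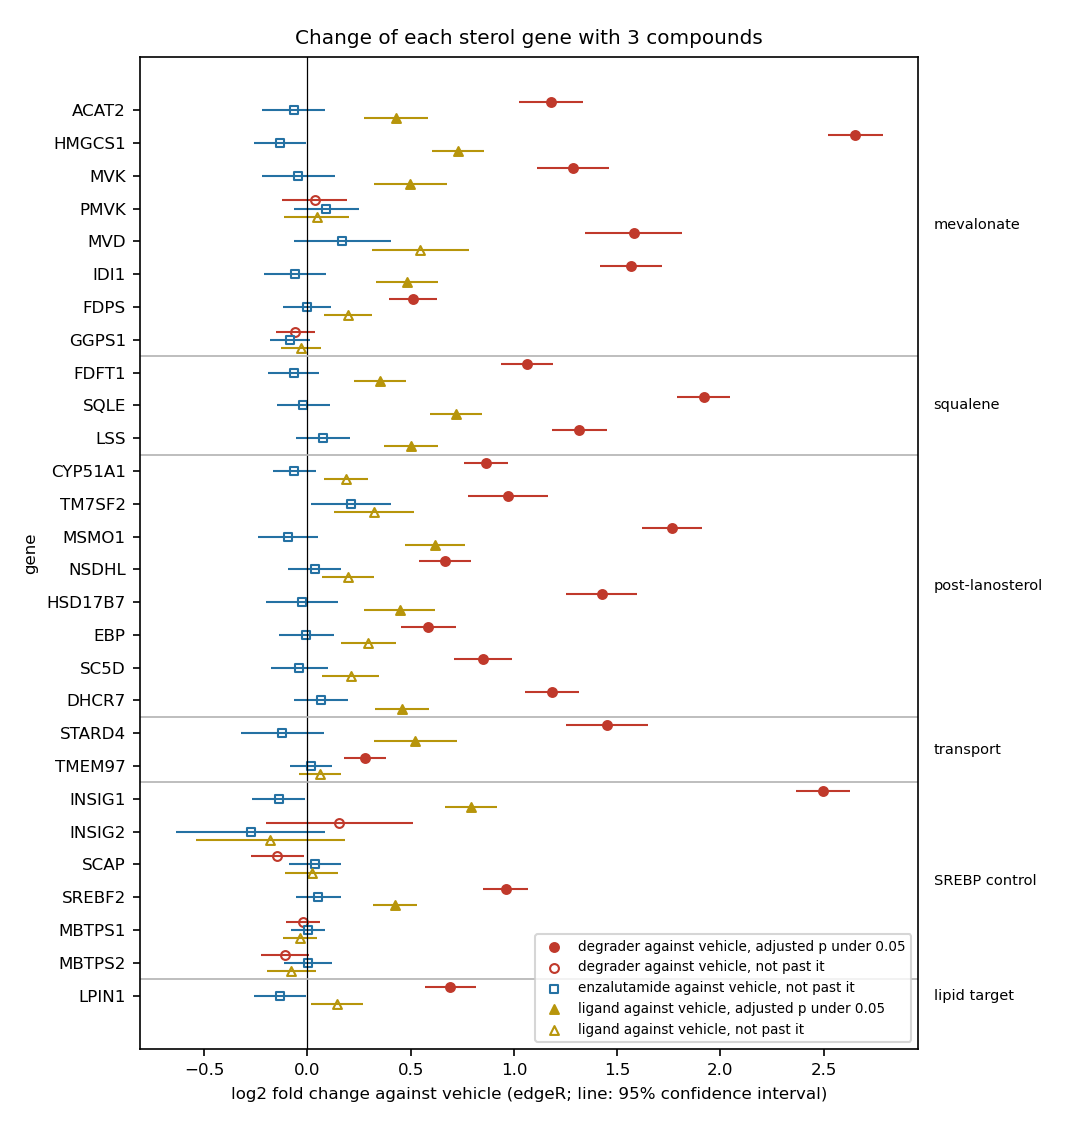
Log2 fold change against vehicle with its 95% confidence interval (edgeR) for the 28 sterol genes by role, for the degrader (circles), enzalutamide (squares) and the ligand (triangles), filled where the adjusted p was under 0.05. The degrader points reach 2.65 at HMGCS1, the ligand points reach 0.79 at INSIG1 and lie between the degrader and 0 wherever they are filled, and all enzalutamide points are open.

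Both sterol transport genes rose. STARD4, a cytosolic carrier that moves cholesterol between membranes, had 66.7, 69.5 and 74.6 CPM with the degrader, 22.8, 23.4 and 24.7 CPM with enzalutamide, 38.0, 30.9 and 42.1 CPM with the ligand and 24.0, 24.5 and 28.6 CPM with vehicle (degrader against vehicle 1.45, SE 0.09, adjusted p = 1.15e-08). TMEM97, the sigma-2 receptor and a partner of the lysosomal cholesterol exporter NPC1, had 79.7, 77.7 and 83.4 CPM with the degrader and 63.2, 68.3 and 67.0 CPM with vehicle (0.28, SE 0.05, adjusted p = 0.000271), the smallest rise that passed among the 28. In both genes the degrader libraries were apart from vehicle. LPIN1, a phosphatidate phosphatase and a known target of SREBPs, had 82.3, 76.3 and 82.2 CPM with the degrader and 47.8, 51.7 and 49.5 CPM with vehicle (0.69, SE 0.06, adjusted p = 2.05e-07).

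Within the SREBP control circuit, INSIG1 and SREBF2 rose and the other 4 genes were not called. Whether SREBP2 itself was more active was not tested. INSIG1, the ER retention protein, had 244, 216 and 224 CPM with the degrader, 36.6, 37.8 and 35.5 CPM with enzalutamide, 76.0, 65.1 and 68.6 CPM with the ligand and 40.8, 40.0 and 40.2 CPM with vehicle, with a 5.65-fold rise with the degrader against vehicle (log2 fold change 2.50, SE 0.06, adjusted p = 7.43e-14). Its groups did not overlap, and the enzalutamide libraries were the lowest of the 12. SREBF2, the SREBP2 gene, had 642, 595 and 575 CPM with the degrader, 338, 308 and 322 CPM with enzalutamide, 419, 434 and 398 CPM with the ligand and 316, 311 and 305 CPM with vehicle (degrader against vehicle 0.96, SE 0.05, adjusted p = 8.64e-10). Here too the degrader libraries were highest and the ligand libraries next, while enzalutamide overlapped vehicle.

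INSIG2, the paralogue of INSIG1 with the same retention function, had 11.5, 9.96 and 10.5 CPM with the degrader, 8.53, 7.78 and 7.44 CPM with enzalutamide, 9.91, 5.55 and 9.99 CPM with the ligand and 10.7, 8.87 and 9.15 CPM with vehicle. The second ligand library was well below the other two, the degrader and vehicle libraries overlapped, and the interval of the change was wide (0.16, 95% confidence interval -0.20 to 0.51, adjusted p = 0.516). SCAP had 139, 130.0 and 121 CPM with the degrader and 145, 143 and 144 CPM with vehicle (-0.15, 95% confidence interval -0.27 to -0.02, adjusted p = 0.0762), with every degrader library below every vehicle library. Without degrader replicate 1 the fall of SCAP passed the test (adjusted p = 0.0284). Neither site protease was called, though the interval of MBTPS2 lay mostly below 0. MBTPS1 had 113, 112 and 112 CPM with the degrader and 115, 113 and 115 CPM with vehicle (-0.02, 95% confidence interval -0.10 to 0.06, adjusted p = 0.721). MBTPS2 was at -0.11, 95% confidence interval -0.23 to 0.01, adjusted p = 0.151. The difference in change between INSIG1 and INSIG2, or between any other pair of genes, was not itself tested.

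**Figure D3:**
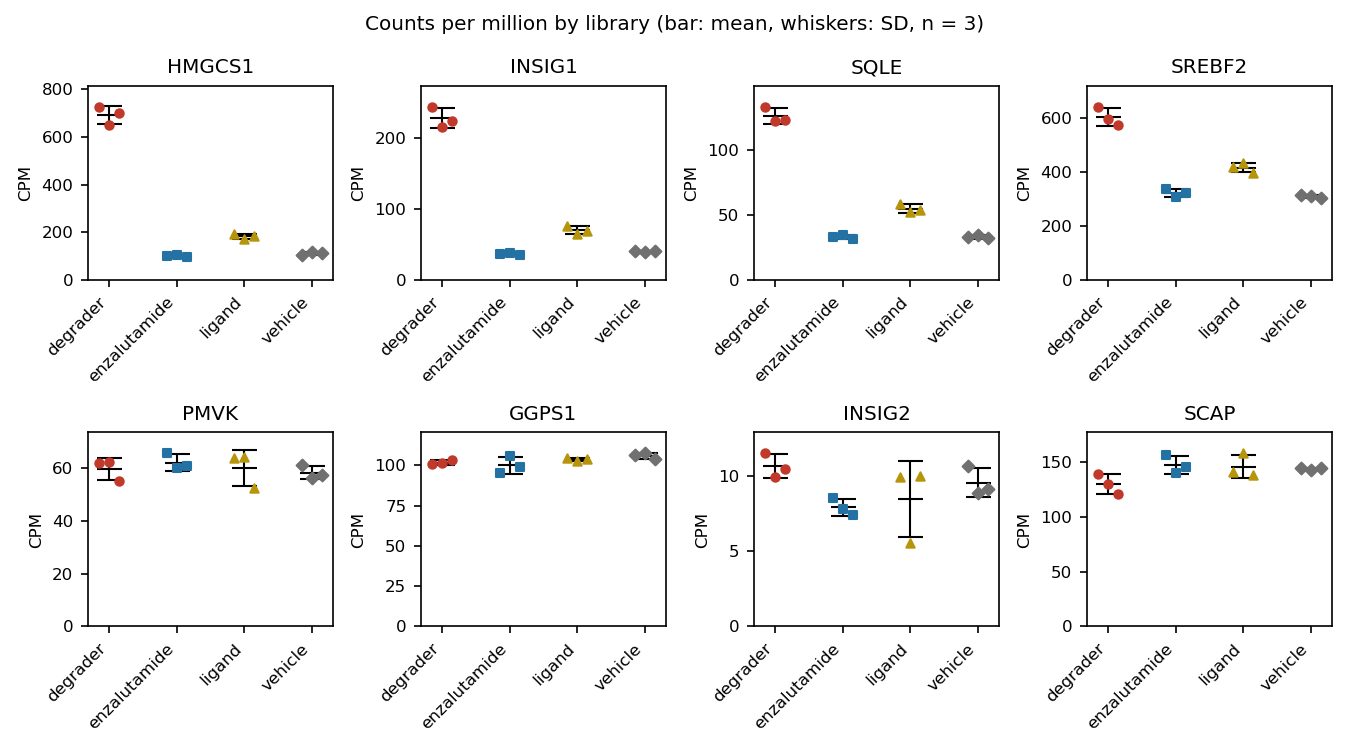
CPM in each library for 8 of the genes, with the mean (bar) and SD (whiskers, n = 3) of each group and an axis from 0. In the upper row (HMGCS1, INSIG1, SQLE and SREBF2) the degrader points stand above the ligand points and both above vehicle, and in the lower row (PMVK, GGPS1, INSIG2 and SCAP) the points of the degrader lie close to those of vehicle.

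The second comparison, enzalutamide against vehicle, set a clinical drug beside the degrader. None of the 28 genes changed by edgeR (0 higher and 0 lower), where 1.44% of all genes did (0.35% higher and 1.09% lower). An unadjusted p under 0.05 was found in 4 of the 28, and in 1749 of all 17702 genes tested. DESeq2 also called 0, as did the authors' deposited table. TM7SF2 was at 0.21, 95% confidence interval 0.02 to 0.40, adjusted p = 0.455, and INSIG1 was at -0.14, 95% confidence interval -0.27 to -0.01, adjusted p = 0.453. LPIN1 was at -0.13, 95% confidence interval -0.26 to -0.01, adjusted p = 0.468, and HMGCS1 was at -0.13, 95% confidence interval -0.26 to -0.01, adjusted p = 0.474. The 3 enzalutamide libraries of INSIG1, LPIN1 and INSIG2 lay below the vehicle libraries and those of TM7SF2 above them, where 8.19% of all genes were below and 8.87% above in the same way. The median log2 fold change was -0.02 over the 28 genes. SREBF2 itself was at 0.05, 95% confidence interval -0.05 to 0.16, adjusted p = 0.779.

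The third comparison, ligand against vehicle, gave the response to the autophagy-activating compound. Of the 28 genes 13 rose and 0 fell by edgeR, where 0.203% of all genes rose and 0.0339% fell. An unadjusted p under 0.05 was found in 21 of the 28, and in 1297 of all 17702 genes tested. DESeq2 called 15 higher and 0 lower, and the authors' deposited table held 16 with an adjusted p under 0.05 and a positive fold, adding MVD, CYP51A1 and EBP to the 13. Only 36 of the 17702 genes tested rose with the ligand in all, so the 13 made up 36.1% of them, and 46.4% of the 28 genes. That share was 16 of 70 (22.9%) without ligand replicate 3 and 15 of 97 (15.5%) by DESeq2, and 34.3 to 47.4% with any other library left out. The median log2 fold change was 0.34 over the 28 genes, and 0.00 over all genes tested. In 19 of the 28 genes the 3 ligand libraries lay above the 3 vehicle libraries, an arrangement found in 5.61% of all genes.

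INSIG1 had the largest rise with the ligand (0.79, SE 0.06, adjusted p = 5.28e-06), a level of 69.9 ± 5.55 CPM with the ligand and 40.3 ± 0.433 CPM with vehicle (mean ± SD, n = 3 each). HMGCS1 was at 0.73, SE 0.06, adjusted p = 5.28e-06, SQLE at 0.72, SE 0.06, adjusted p = 5.28e-06 and MSMO1 at 0.62, SE 0.07, adjusted p = 0.000199. The others that rose were STARD4 (0.52), LSS (0.50), MVK (0.50), IDI1 (0.48), DHCR7 (0.46), HSD17B7 (0.45), ACAT2 (0.43), SREBF2 (0.42) and FDFT1 (0.35). All 13 were among the 22 of the 28 genes that rose with the degrader, where 16.4% of all genes rose. That comparison shares the vehicle libraries, and the same overlap over all genes was not counted. MVD had a larger fold change than most of these but a larger spread (0.55, SE 0.11, adjusted p = 0.0684), with ligand libraries at 53.9, 55.4 and 41.7 CPM and vehicle libraries at 36.9, 33.1 and 33.4 CPM that did not overlap.

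The 6 genes not called with the degrader were not called with the ligand either, and nor were 17660 of the 17702 genes tested. PMVK was at 0.05, 95% confidence interval -0.11 to 0.20, adjusted p = 0.965, and GGPS1 was at -0.03, 95% confidence interval -0.13 to 0.06, adjusted p = 0.955. SCAP was at 0.02, 95% confidence interval -0.11 to 0.15, adjusted p = 0.986. For MBTPS1 it was -0.04, 95% confidence interval -0.12 to 0.05, adjusted p = 0.914, and for MBTPS2 -0.08, 95% confidence interval -0.20 to 0.04, adjusted p = 0.838. INSIG2 was at -0.18, 95% confidence interval -0.54 to 0.18, adjusted p = 0.897. The count of 13 was sensitive to single libraries, being 8 without ligand replicate 1 and 8 without vehicle replicate 2. ACAT2, FDFT1, HSD17B7, MVK and STARD4 lost their calls in one or more such fits, at adjusted p from 0.0708 to 0.174. Without ligand replicate 3 the count was 16, with MVD (adjusted p = 0.00115), EBP (0.0130) and TM7SF2 (0.0293) added.

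Set directly against the ligand, the degrader gave higher levels in 22 of the 28 genes, with SCAP lower, where 14.3% of all genes were higher and 14.2% lower. The difference was 1.92 on the log2 scale for HMGCS1 (SE 0.06, adjusted p = 4.26e-12), 1.70 for INSIG1 (7.99e-12), 1.20 for SQLE (6.06e-10) and 1.15 for MSMO1 (4.73e-09). For SREBF2 it was 0.54 (1.04e-06). The smallest of the 22 rises were those of FDPS (0.32), EBP (0.29) and TMEM97 (0.22). These are the same 22 genes that rose with the degrader against vehicle, and the median over all 28 was 0.66. SCAP was at -0.17, SE 0.06, adjusted p = 0.0486, with degrader libraries at 139, 130.0 and 121 CPM and ligand libraries at 142, 158 and 138 CPM that overlapped.

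Against enzalutamide the degrader gave higher levels in the same 22 genes and a lower level of SCAP, where 16.3% of all genes were higher and 16.1% lower. HMGCS1 differed by 2.79 on the log2 scale (SE 0.06, adjusted p = 2.34e-14) and INSIG1 by 2.64 (2.34e-14). SCAP was at -0.18, SE 0.06, adjusted p = 0.0283, and its enzalutamide libraries were at 157, 141 and 146 CPM, each above every degrader library, the first of which came close. Its call against enzalutamide was lost without degrader replicate 2 or 3 or enzalutamide replicate 1 or 3 (adjusted p = 0.0754, 0.139, 0.136 and 0.0577), and its call against the ligand without degrader replicate 2 or 3 or ligand replicate 1 or 2 (0.104, 0.189, 0.0656 and 0.225). INSIG2, at 0.43, 95% confidence interval 0.07 to 0.79, adjusted p = 0.0645, was not called, and its degrader libraries were all above its enzalutamide libraries. It was called by DESeq2 (adjusted p = 0.0251) and in a fit to the 2 groups (0.00147), which gave 23 higher genes each.

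Levels of different genes were compared per transcript length with the deposited FPKM values (fragments per kilobase of transcript, scaled to library size). With the degrader they ran from 2.77 ± 0.154 FPKM for INSIG2 to 288 ± 25.9 FPKM for FDFT1, and with vehicle from 2.43 ± 0.222 FPKM for INSIG2 to 149.6 ± 5.70 FPKM for FDPS (mean ± SD, n = 3). HMGCS1 was 4th of the 28 with the degrader, at 117 ± 5.98 FPKM, and 17th with vehicle, at 18.7 ± 1.33 FPKM. INSIG1 was 11th with the degrader, at 69.8 ± 4.32 FPKM, and 19th with vehicle, at 12.3 ± 0.137 FPKM. PMVK was 13th with the degrader, at 53.2 ± 3.84 FPKM, and 6th with vehicle, at 51.8 ± 1.75 FPKM. In vehicle HMGCS1, MVD and IDI1 all lay below PMVK, whereas with the degrader HMGCS1 and IDI1 lay above it and MVD (51.8 ± 5.74 FPKM) was within the spread of PMVK. In vehicle, CYP51A1 (70.5 ± 3.94 FPKM) and EBP (69.0 ± 1.73 FPKM) did not differ beyond their spread, nor did NSDHL (10.5 ± 0.216 FPKM), SQLE (10.2 ± 0.574 FPKM) and MBTPS2 (10.2 ± 0.506 FPKM). INSIG2 was the lowest of the 28 in every group.

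**Figure D4:**
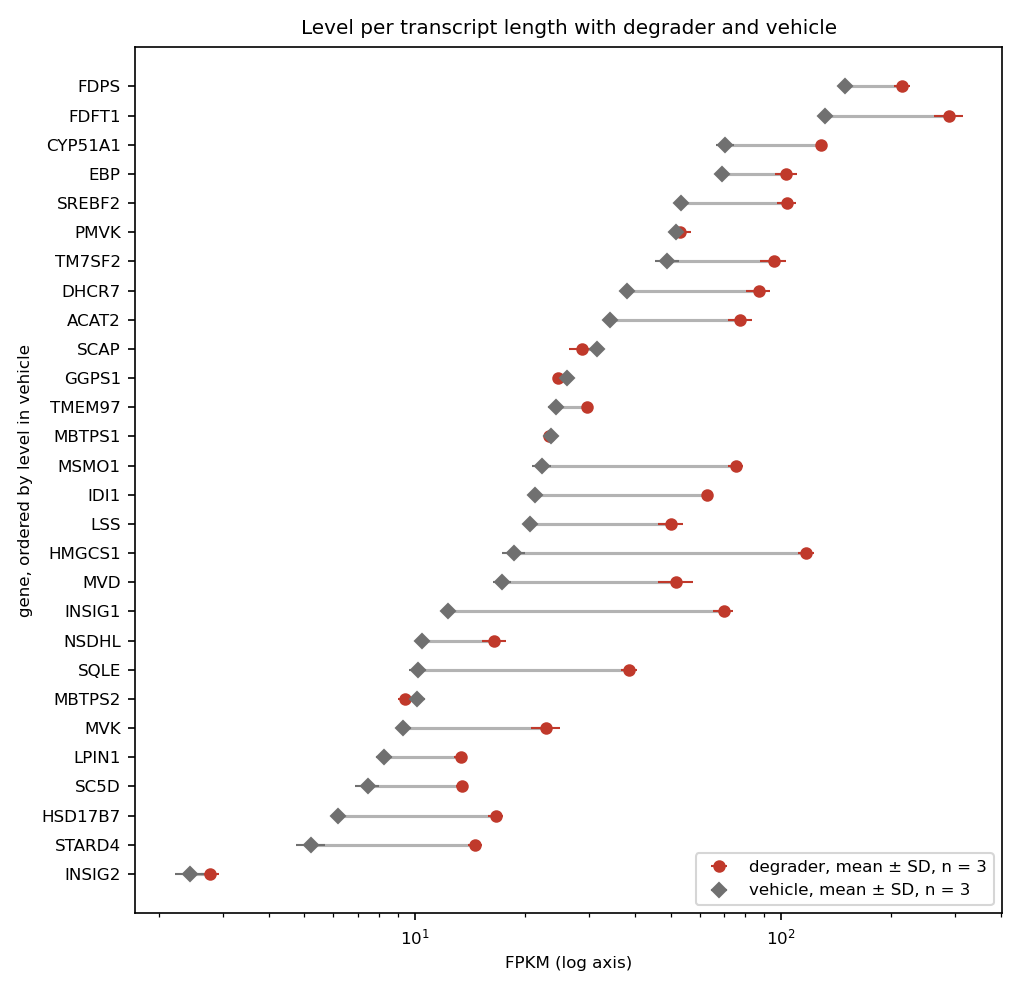
FPKM (log axis) of each of the 28 genes with the degrader (circles) and vehicle (diamonds), mean ± SD of 3 libraries, with genes ordered by their level in vehicle. The long grey lines of HMGCS1, INSIG1, SQLE and MSMO1 show the largest rises, and for PMVK, GGPS1, SCAP, MBTPS1, MBTPS2 and INSIG2 the symbols nearly coincide.

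Other genes that use, move or sense sterols and isoprenoids moved in both directions. Of 37 such genes 36 were tested, and with the degrader against vehicle 11 rose and 4 fell, where 16.4% of all genes rose and 16.4% fell, with a median log2 fold change of 0.00. ERG28, a scaffold protein of the post-lanosterol enzymes, was the one that rose by more than 1 on the log2 scale, at 109 ± 7.02 CPM with the degrader and 53.6 ± 2.05 CPM with vehicle (1.03, SE 0.06, adjusted p = 1.09e-09). MMAB, a cobalamin enzyme gene that neighbours MVK, was at 0.70, SE 0.06, adjusted p = 2.99e-07, NPC1, the lysosomal cholesterol exporter, at 0.64, SE 0.06, adjusted p = 9.06e-07 and RNF145, a ubiquitin ligase of the ER, at 0.55, SE 0.05, adjusted p = 7.29e-07. The 4 that fell were PDSS1 (-0.43) and COQ2 (-0.25), which make coenzyme Q from isoprenoids, CYB5A (-0.27), an electron donor of the ER, and ERLIN1 (-0.15), an ER lipid raft protein.

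With the ligand against vehicle MMAB was the only one of the 36 called (0.32, SE 0.06, adjusted p = 0.0381), where 0.203% of all genes rose. MMAB lost its call without ligand replicate 1 or 2 or vehicle replicate 2 or 3 (adjusted p = 0.250, 0.193, 0.216 and 0.222). Without ligand replicate 3, 4 of the 36 were called, all higher, where 70 of all 17823 genes tested rose. With enzalutamide 0 of the 36 were called by edgeR, where 1.44% of all genes were. An unadjusted p under 0.05 was found in 2 of the 36, SOAT1 and GRAMD1A, and in 1749 of all 17702 genes tested. DESeq2 called 0 of the 36 with enzalutamide and 3 with the ligand, MMAB, NPC2 and ERG28, all higher. Of all 17702 genes it called 403 with enzalutamide and 121 with the ligand.

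Some of the 28 genes share exon sequence with neighbours or copies, and whether the authors' counting used strand is not given in the sources used here. The pseudogene HSD17B7P2 rose as its parent gene HSD17B7 did, by 1.48 with the degrader against vehicle (adjusted p = 8.78e-09), so reads may be split between them and the HSD17B7 values are uncertain to that extent. STARD4-AS1, antisense to STARD4, was at 1.44 (0.0101), and MMAB overlaps MVK on the other strand. TCP1, which overlaps ACAT2 on the other strand, fell by 0.42 (3.78e-07) while ACAT2 rose. The neighbours of GGPS1, ARID4B and TBCE, were at 0.02 (0.802) and 0.02 (0.782), and TMEM97 overlaps IFT20, at 0.28 (0.0132). Partners of CYP51A1, FDPS, IDI1 and TM7SF2 were not called. The part of such shared reads in any result was not tested.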

How the data were processed

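Reads of 12 libraries, made with a stranded poly(A) mRNA kit, were processed with HISAT2 and StringTie on GRCh37, per the submitters' processing notes. The authors deposited a raw read count per gene and library, used here for all tests, and FPKM values, used for levels per length. Per the file headers, the authors also gave a Benjamini-Hochberg p-value and a signed fold change (a score that is minus the inverse ratio for a fall) of each compound against vehicle. The test behind them is not given in the sources used here.

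Counts were filtered with edgeR filterByExpr (minimum count 10, minimum total 15; 17702 of 18668 genes kept), scaled by TMM and fitted with edgeR's quasi-likelihood model over all 12 libraries by group (8 residual degrees of freedom). CPM uses TMM-scaled totals. P-values were adjusted over all genes tested. Alternatives were DESeq2, no filter, a fit to the 2 groups compared, leaving out each replicate, and the replicate number as a block. The fit was tested on simulated data. Replicates of a group differed beyond counting noise (chi-square over its degrees of freedom 5.23 to 21.3), so none was a duplicate of another. The comparisons with vehicle share its libraries. Named were all 28 genes, of the other 37 sterol genes the 4 called with the smallest p and any of a count of 5 or fewer that edgeR or DESeq2 called or that had a low unadjusted p, and neighbours or copies that share exons with the 28. The genes, lists and tests were chosen with earlier results of these data known. Versions were R 4.3.3, edgeR 4.0.16 and DESeq2 1.42.0. Promoter windows came from RefSeq (GRCh38.p14).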

Additional observations from a re-analysis of the deposited data

How the results depend on the processing

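Over 1400 fold changes of single genes under all alternatives, 1353 kept their side of the threshold, 29 lost a call and 18 gained one. Of those called in the main fit or the alternative, 0 reversed direction. A gene called in neither fit could change sign and still count among the 1353. The 22 rises with the degrader held at 22 in every fit that left out a library, against each of vehicle, enzalutamide and the ligand, and the median stayed at 0.91 to 1.01 against vehicle, 0.91 to 0.95 against enzalutamide and 0.64 to 0.71 against the ligand. INSIG2 brought the higher count to 23 against enzalutamide by DESeq2, in a fit to the 2 groups and with the replicate block (adjusted p = 0.00991 for INSIG2), and against the ligand with the block (0.0313). With the ligand against vehicle, 8 to 16 genes rose with a library left out (median 0.30 to 0.40), 11 in a fit to those 2 groups and 18 with the replicate block, then 14.4% of the 125 genes that rose. Counts of falls rest on SCAP. With the degrader against vehicle they were 0 to 1 with a library left out, 1 in a fit to the 2 groups and 1 with the replicate block. They were 0 to 1 with a library left out against enzalutamide and against the ligand, and 0 against the ligand in a fit to the 2 groups. With the replicate block 1 gene, TM7SF2, rose with enzalutamide (0.21, adjusted p = 0.00452). Over all genes, same-numbered libraries had correlations of -0.0125 to 0.207. In no comparison did every pair reach the size required beforehand, so the numbers were not taken as pairs. With enzalutamide against vehicle (0.149, 0.0594 and 0.0772) and the degrader against enzalutamide (0.163, 0.0231 and 0.0798), each library still correlated best with its own number. Whether same-numbered libraries shared an effect was not tested. Over the 28 genes alone the correlations were 0.662, 0.533 and 0.409 for enzalutamide against vehicle, 0.305, 0.25 and 0.721 for the degrader against the ligand, and -0.00616 to 0.789 in the other comparisons. Over all genes replicate 2 did not correlate best with its own number with the degrader or the ligand against vehicle, nor replicate 1 with the degrader against the ligand. Background counts moved too: DESeq2 called 403 genes with enzalutamide and 121 with the ligand, and the replicate block 553 and 191, against 255 and 42 by the fit reported. Leaving out a library gave 21 to 77 genes with the ligand, and a fit to the 2 groups 25. The causes were not tested. Counts per kilobase used lengths implied by the same counts and FPKM, so they are no independent check of the FPKM order.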
